A study of Mus musculus with 6 samples.

Results

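A set of 36 genes of glycolysis and of the cell's response to low oxygen was followed in mast cells of fetal mouse skin. The members were taken by symbol for their known functions, with earlier results of these data known: 2 glucose transporters, 15 glycolytic enzymes, 4 genes that switch the flux or export lactate, 2 subunits of the hypoxia-inducible factor (HIF), 2 oxygen sensors and 11 other HIF targets. All 36 symbols were found among the 55809 gene rows of the count tables, and all 36 passed the filter on low counts, which left 16716 genes. The cells came from the skin of C57BL6J fetuses of both sexes at embryonic day 18.5. They were sorted as CD45+ F4/80- CD64- CD117+ ST2+ after the tissue had been minced and digested for 45 minutes at 37 °C. In the prenatal stress group (PS, 3 libraries), dams aged 8 to 10 weeks were restrained in tubes under a 200 W light, in 3 sessions of 30 minutes each day. The design text sets the stress at embryonic days 13.5 to 18.5 and the protocol at days 13 to 18. The control group (CT, 3 libraries) came from dams of the same age that were left undisturbed. The labels name no transgene or drug in either group. Each library was a pool of 4 mice, and the labels do not say how many litters a pool drew on, so the p-values reflect differences between pools only.

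Glycolysis breaks glucose down to pyruvate in the cytosol, and lactate dehydrogenase can turn the pyruvate into lactate and so restore the cofactor the pathway needs. HIF is a transcription factor with an oxygen-labile alpha subunit. In normal oxygen, prolyl hydroxylases mark the alpha subunit for destruction, and in low oxygen it accumulates and switches on genes that share a short DNA motif, the hypoxia response element. Nearly every step of glycolysis has an enzyme gene that HIF can induce, which is why the enzymes and the other HIF targets are set side by side here. Mast cells draw on glycolysis when their immunoglobulin E receptor is engaged.

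Libraries held 51710555 to 57806119 counts assigned to genes in PS and 54616570 to 74735139 in CT. Levels are given in CPM, counts scaled to library size with a correction for composition, with the SD over 3 pools. Fold changes are PS over CT on the log2 scale with their standard error (SE) from edgeR's quasi-likelihood test, and "passed" means a Benjamini-Hochberg adjusted p under 0.05 over all 16716 genes. Of all genes tested, 6.19% passed, 4.34% as higher and 1.85% as lower in PS, and the median log2 fold change was -0.00387. All 12 genes of a mast cell marker list were tested; their summed level was 91980, 102871 and 85382 CPM in PS replicates 1, 2 and 3, against 71174, 59015 and 71283 CPM in CT replicates 1, 2 and 3. Of these 12, 6 were called higher and 0 lower. Transcripts of a macrophage and monocyte list of 20 genes were present too, although the sort was gated against such cells. That list summed to 7880, 7256 and 11653 CPM in PS replicates 1, 2 and 3, and to 9736, 11167 and 11071 CPM in CT replicates 1, 2 and 3, so PS replicate 3 stood apart from the other PS libraries. Of 6 melanocyte markers, 5 were called higher and 0 lower, and the list summed to 41.0, 72.2 and 29.5 CPM in PS replicates 1, 2 and 3, against 20.4, 14.3 and 14.5 CPM in CT replicates 1, 2 and 3. No gene of these lists was at 0 in all libraries. The part of the mast cell and melanocyte lists in the results below was not tested. In bulk RNA, fewer cells of a type and less RNA per cell cannot be told apart. Of 5 sex-linked genes tested, 4 had a positive and 1 a negative log2 fold change, with a median of 0.59. Of these, 0 were called higher and 0 lower, beside 4.34% and 1.85% of all genes tested. Xist and the Y-linked Ddx3y were chosen after their values were seen. In the 6 fits that left out 1 library, Xist was at -1.36 to -0.41 and Ddx3y at 0.34 to 0.76. Whether the sexes were balanced between PS and CT was not tested.

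None of the 15 glycolytic enzymes passed the test, while Ndrg1 and Car9 among the other HIF targets rose in PS. Of all 36 members, 2 were higher (5.56%, beside 4.34% of all genes tested), 0 were lower (beside 1.85%) and 34 did not pass. Of the members, 33 had a mean over 10 CPM, and among all 8650 tested genes at that level 6.42% were higher and 2.67% lower, so the members' counts were near the background. An unadjusted p under 0.05 was reached by 9 members on the higher and 7 on the lower side, beside 13.3% and 11.6% of all genes tested. Both genes that rose belonged to the 11 other HIF targets, whose median log2 fold change was 0.19. The 15 enzymes had a median of -0.02, with values from -0.20 to 0.20. Over all members the median was 0.02, and 27 of 36 lay within 0.2 of 0. The difference between the enzymes and the other HIF targets is described by these counts and medians and was not tested.

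**Figure D1:**
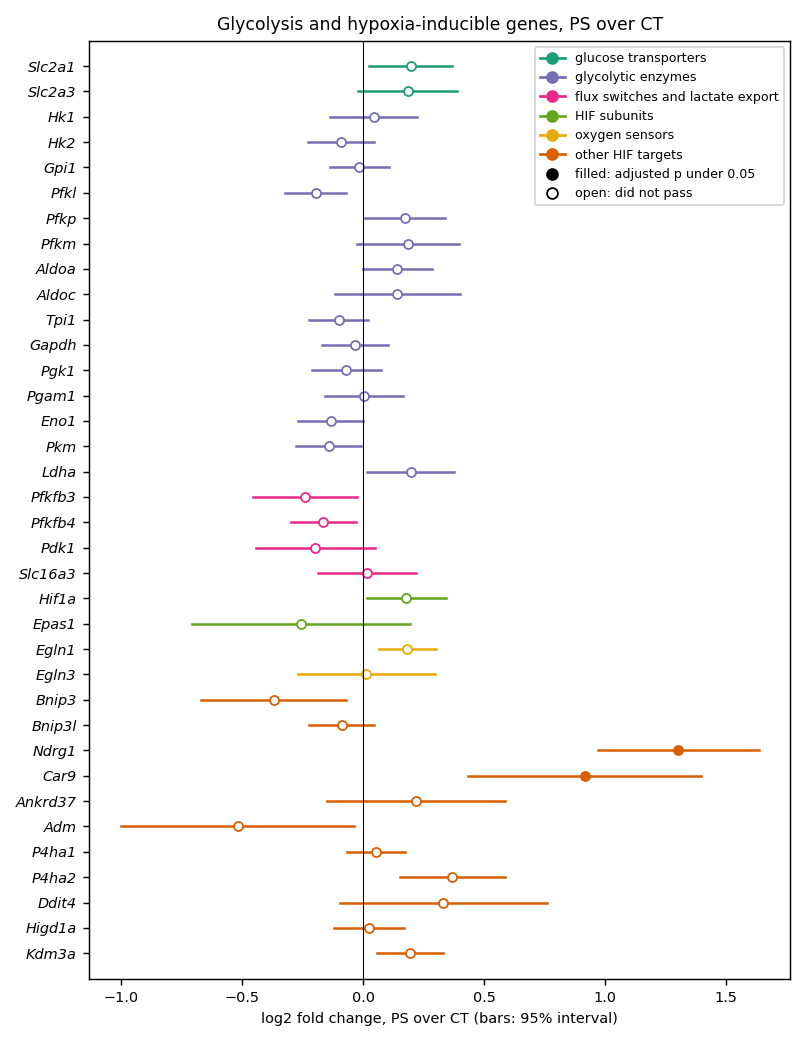
Log2 fold change of PS over CT (horizontal axis) for each of the 36 genes, with bars for the 95% interval; colours mark the gene's role, and filled points passed an adjusted p of 0.05. Ndrg1 at 1.30 and Car9 at 0.92 are the only filled points, and all 15 glycolytic enzymes lie between -0.20 and 0.20.

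Ndrg1, N-myc downstream regulated 1, is a classic hypoxia-induced gene, and in mice its loss impairs mast cell maturation and degranulation. It was at 646, 815 and 872 CPM in PS replicates 1, 2 and 3, against 353, 252 and 341 CPM in CT replicates 1, 2 and 3. The groups did not overlap, and the lowest PS library lay well above the highest CT library. Ndrg1 averaged 777 ± 117 CPM in PS and 315 ± 55.0 CPM in CT (SD, n = 3 pools each), a 2.46-fold rise. Its log2 fold change was 1.30 ± 0.15 (SE, 95% interval 0.97 to 1.63, adjusted p = 0.00431 by edgeR). The call held in all 6 fits that left out 1 library (log2 fold changes 1.16 to 1.41, adjusted p 0.00119 to 0.0216). With the mean of the macrophage list as a covariate it was at 1.34 (adjusted p = 0.00160). In GENCODE M21 the gene lies on chromosome 15, none of its transcript 75-mers occurs in another gene, and genes on the other strand cover 8.43% of its exon length.

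Car9, a membrane carbonic anhydrase that helps cells in low oxygen control their pH, was much less abundant. It was at 18.6, 12.6 and 9.46 CPM in PS replicates 1, 2 and 3, and at 6.72, 7.06 and 7.80 CPM in CT replicates 1, 2 and 3. All PS libraries lay above all CT libraries, and PS replicate 3 was the closest to them. The means were 13.6 ± 4.65 CPM in PS and 7.19 ± 0.553 CPM in CT (SD, n = 3 pools each; log2 fold change 0.92 ± 0.21, 95% interval 0.43 to 1.397, adjusted p = 0.0417 by edgeR). This call ended without any 1 library other than PS replicate 3. Those fits also called fewer genes in all, 196 to 460 against 1035 in the main fit. The adjusted p was 0.0659 and 0.112 without PS replicates 1 and 2, 0.114, 0.166 and 0.0937 without CT replicates 1, 2 and 3, and 0.00189 without PS replicate 3. Without PS replicate 1 the log2 fold change was 0.61. It did not pass with limma-voom (0.86, adjusted p = 0.0555) or with the macrophage list as a covariate (0.65, adjusted p = 0.132).

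**Figure D2:**
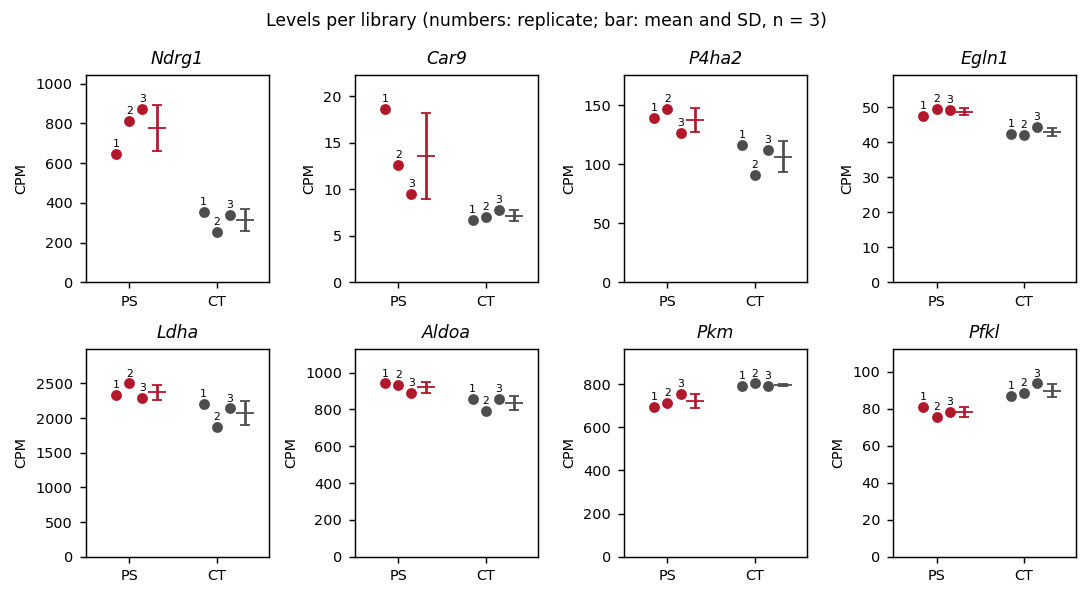
CPM in each library (points, numbered by replicate) for 8 genes, PS left of CT, with bars for the mean and SD of 3 pools; each vertical axis starts at 0. Ndrg1 ranges from 646 to 872 CPM in PS and from 252 to 353 CPM in CT, whereas Ldha, Aldoa, Pkm and Pfkl are separated by narrow gaps.

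The remaining 9 HIF targets did not pass. P4ha2, a subunit of the prolyl hydroxylase that matures collagen, was at 139, 147 and 127 CPM in PS replicates 1, 2 and 3, and at 116, 91.3 and 112 CPM in CT replicates 1, 2 and 3. The groups did not overlap, and its log2 fold change was 0.37 ± 0.10 (adjusted p = 0.0562 by edgeR). It passed with DESeq2 (adjusted p = 0.00651) and without PS replicate 3 (0.0153), and was at 0.25 with the macrophage covariate (0.160). The isozyme gene P4ha1 averaged 74.0 ± 1.38 CPM in PS and 71.3 ± 2.81 CPM in CT, a log2 fold change of 0.05 ± 0.05. Kdm3a, a histone demethylase, averaged 119 ± 4.28 CPM in PS and 104 ± 5.58 CPM in CT, again without overlap (0.19 ± 0.06, adjusted p = 0.0896 by edgeR). Ddit4, an inhibitor of mTORC1 signalling, was at 21.6, 17.8 and 11.5 CPM in PS replicates 1, 2 and 3, and at 13.0, 13.6 and 13.9 CPM in CT replicates 1, 2 and 3. PS replicate 3 was below every CT library while the other PS libraries were above them all. The log2 fold change of Ddit4 was 0.33 ± 0.19 (adjusted p = 0.312 by edgeR), and 0.54 without PS replicate 3 (adjusted p = 0.00489).

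The other 5 targets lay on both sides of 0. Bnip3, a mitochondrial protein that promotes mitophagy, was at 20.96, 18.1 and 25.5 CPM in PS replicates 1, 2 and 3, against 24.3, 31.3 and 28.0 CPM in CT replicates 1, 2 and 3. Its groups overlapped through PS replicate 3 (log2 fold change -0.37 ± 0.13, adjusted p = 0.125 by edgeR). The related Bnip3l averaged 78.0 ± 3.39 CPM in PS and 83.0 ± 3.89 CPM in CT. The 75-mers of Bnip3 and Bnip3l are shared with other genes for 11.4% and 16.9% of the total, so their levels are uncertain. Adm, which encodes the vasodilator adrenomedullin, was among the rarest members, at 1.17, 0.872 and 1.46 CPM in PS replicates 1, 2 and 3, and at 1.62, 1.72 and 1.69 CPM in CT replicates 1, 2 and 3. All PS libraries were below all CT libraries, but the gene did not pass (-0.52 ± 0.21, adjusted p = 0.173 by edgeR). Ankrd37, an ankyrin repeat gene, was at 0.22 ± 0.16 on the log2 fold scale and Higd1a, a mitochondrial inner membrane protein, at 0.02 ± 0.06. Genes on the other strand cover the exons of Ankrd37, Higd1a and Bnip3 for 26.4%, 22.5% and 22.3% of their length. The strand setting of the counting is not given in the sources used here, so reads of the partner genes may be among theirs.

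The summed level of the 11 other HIF targets was 1140, 1310 and 1335 CPM in PS replicates 1, 2 and 3, against 797, 672 and 787 CPM in CT replicates 1, 2 and 3. Ndrg1 supplied 56.7%, 62.2% and 65.3% of that sum in PS replicates 1, 2 and 3, and 44.3%, 37.5% and 43.3% in CT replicates 1, 2 and 3. With Ndrg1 taken out, the sum was 494, 495 and 464 CPM in PS replicates 1, 2 and 3, and 444, 420 and 447 CPM in CT replicates 1, 2 and 3. The gap between the groups therefore came mostly from this gene. The 15 enzymes summed to 8362, 8631 and 8430 CPM in PS replicates 1, 2 and 3, and to 8464, 7934 and 8434 CPM in CT replicates 1, 2 and 3, where the groups overlapped. Without the correction for composition they took 0.815%, 0.816% and 0.811% of counts in PS replicates 1, 2 and 3. In CT replicates 1, 2 and 3 they took 0.870%, 0.854% and 0.858%, so the overlap depends on the scaling.

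Among the enzymes, 0 of 15 passed in either direction, 7 had a positive and 8 a negative log2 fold change, and an unadjusted p under 0.05 was reached by 2 on the higher and 3 on the lower side (beside 13.3% and 11.6% of all genes tested). Over all 15, the 95% intervals of the main fit ran from 0.799-fold to 1.32-fold. They take its scaling as given and are no bound under another. Scaled by library totals alone, Pfkl was at -0.31 on the log2 fold scale. Ldha, the lactate dehydrogenase A chain that makes lactate from pyruvate, was at 2328, 2499 and 2286 CPM in PS replicates 1, 2 and 3, and at 2197, 1871 and 2138 CPM in CT replicates 1, 2 and 3. Its groups did not overlap, by a narrow gap between PS replicate 3 and CT replicate 1. The means were 2371 ± 113 CPM in PS and 2068 ± 174 CPM in CT, a 1.15-fold difference (log2 fold change 0.20 ± 0.08, 95% interval 0.02 to 0.38, adjusted p = 0.167 by edgeR). Aldoa, the main aldolase, also had separate groups, with 920 ± 28.6 CPM in PS and 835 ± 38.0 CPM in CT (0.14 ± 0.06, adjusted p = 0.205).

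Pkm, the pyruvate kinase that makes pyruvate and ATP, was at 693, 714 and 755 CPM in PS replicates 1, 2 and 3, against 793, 803 and 792 CPM in CT replicates 1, 2 and 3 (-0.14 ± 0.06, adjusted p = 0.179 by edgeR). Eno1, enolase, was at 479.6, 504 and 522 CPM in PS and at 538, 559 and 556 CPM in CT in the same order (-0.13 ± 0.06, adjusted p = 0.1997). Neither gene's groups overlapped, and PS replicate 3 was the nearest to CT for both. Tpi1, triosephosphate isomerase, averaged 428 ± 5.01 CPM in PS and 459 ± 7.72 CPM in CT (-0.10 ± 0.05, adjusted p = 0.273). Gapdh, glyceraldehyde-3-phosphate dehydrogenase and a common reference gene in PCR work, was at 1720.5, 1754 and 1815 CPM in PS replicates 1, 2 and 3, and at 1838, 1761 and 1820.1 CPM in CT replicates 1, 2 and 3. Its groups overlapped, with a log2 fold change of -0.03 ± 0.06 (95% interval -0.17 to 0.10, adjusted p = 0.767).

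Pgk1, phosphoglycerate kinase, is among the best known HIF-induced enzymes. It was at 304, 324 and 344 CPM in PS replicates 1, 2 and 3, and at 333, 349.8 and 337 CPM in CT replicates 1, 2 and 3, so the groups overlapped (-0.07 ± 0.06, adjusted p = 0.535 by edgeR). Pgam1, phosphoglycerate mutase, and Gpi1, glucose-6-phosphate isomerase, were at 0.00 ± 0.07 and -0.02 ± 0.05 on the log2 fold scale. Several of these genes share near-identical stretches with other genes, many of them processed copies, and reads that fit both may go uncounted. Pkm shares most with Gm49759 (10.6%) and Eno1 with the protein-coding Eno1b (22.6%), neither of which is annotated as a processed copy. The share of transcript 75-mers found in another gene was 52.8% for Pgk1, 34.9% for Pgam1, 23.0% for Eno1, 22.6% for Gapdh and 17.8% for Pkm, and these levels are uncertain for that reason.

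The entry steps of glycolysis have several isozymes each. Hk1, the hexokinase that most tissues express, averaged 345 ± 26.5 CPM in PS and 335 ± 24.7 CPM in CT (0.04 ± 0.08). Hk2, the HIF-inducible hexokinase, was at 119.7, 117 and 117 CPM in PS replicates 1, 2 and 3, and at 119, 123 and 135 CPM in CT replicates 1, 2 and 3 (-0.09 ± 0.06, adjusted p = 0.373 by edgeR). Its groups overlapped, and the CT libraries held the highest values. Per kilobase of the longest transcript, Hk1 made up 63.9% to 72.8% of hexokinase in PS and 60.9% to 65.5% in CT, and Hk2 18.1% to 18.4% in PS and 17.6% to 18.9% in CT. The rest was Hk3, a gene chosen after its values were seen, with 8.86% to 17.7% in PS and 16.9% to 20.1% in CT. Per kilobase of merged exons, Hk1 made up 49.6% to 59.7% in PS and 46.5% to 51.4% in CT, and Hk2 26.3% to 27.7% in PS and 25.5% to 26.8% in CT.

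Phosphofructokinase is the committed step, and its isozymes leaned in opposite directions. Pfkl, the liver type, was at 81.3, 75.5 and 78.3 CPM in PS replicates 1, 2 and 3, and at 87.0, 88.8 and 93.7 CPM in CT replicates 1, 2 and 3. Its groups did not overlap, and its log2 fold change was -0.20 ± 0.06 (95% interval -0.32 to -0.07, adjusted p = 0.0718 by edgeR). Pfkp, the platelet type, averaged 244 ± 11.5 CPM in PS and 217 ± 17.9 CPM in CT (0.17 ± 0.07, adjusted p = 0.183), and the muscle type Pfkm 79.2 ± 5.37 CPM in PS and 69.7 ± 8.47 CPM in CT (0.18 ± 0.09, adjusted p = 0.257). Per kilobase of the longest transcript, Pfkl was 26.5% to 28.6% of the isozymes' sum in PS and 30.4% to 35.2% in CT. Pfkp was 36.6% to 36.9% in PS and 32.9% to 35.3% in CT. These shares depend on the length used: per kilobase of merged exons, Pfkl was 21.1% to 23.0% in PS and 24.5% to 28.8% in CT, and Pfkm took the largest share. Aldoc, the brain aldolase, stayed marginal, since Aldoa made up at least 99.3% of aldolase per length in every library.

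**Figure D3:**
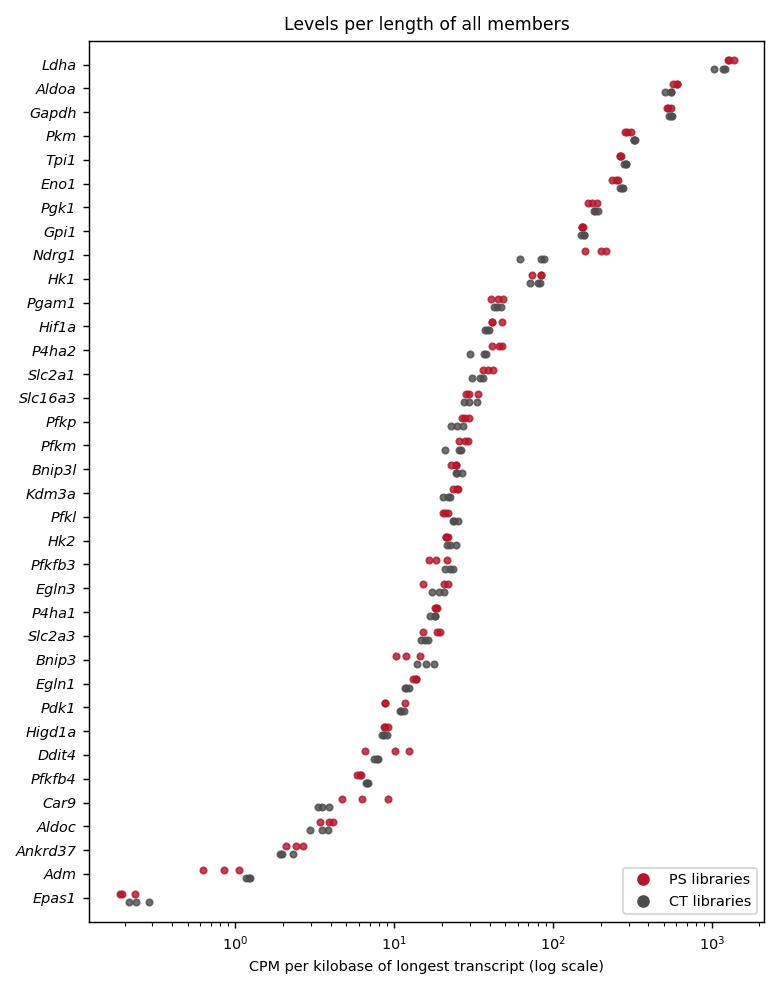
CPM per kilobase of the longest GENCODE M21 transcript (log axis) for all 36 genes, ordered by level, with PS libraries above CT libraries in each row. Ldha is at 1306 in PS and 1140 in CT on average, and Ndrg1 at 192 in PS and 77.9 in CT.

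Levels can be compared between genes only per length, and per kilobase of the longest transcript the enzymes led the set. The longest annotated transcript may not be the main one, so the order of genes depends on the length used. Mean CPM per kilobase was 1306 in PS and 1140 in CT for Ldha, 594 in PS and 539 in CT for Aldoa, and 536 in PS and 549 in CT for Gapdh. Pkm followed with 296 in PS and 327 in CT. Ndrg1 was at 159.5, 201 and 215 CPM per kilobase in PS replicates 1, 2 and 3. These values were above the range of Gpi1 in PS (153 to 155). In CT replicates 1, 2 and 3 Ndrg1 was at 87.3, 62.3 and 84.1 CPM per kilobase. That was around the level of Hk1 in CT (71.9 to 82.9). Epas1 and Adm were the rarest members on this scale.

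Glucose import and the flux switches did not pass either. Slc2a1, the widespread glucose transporter GLUT1, was at 127, 136 and 119 CPM in PS replicates 1, 2 and 3, and at 113, 101 and 119 CPM in CT replicates 1, 2 and 3. PS replicate 3 lay within the CT range, just under CT replicate 3 (0.20 ± 0.08, adjusted p = 0.152 by edgeR). The high-affinity transporter gene Slc2a3 averaged 111 ± 13.9 CPM in PS and 97.4 ± 4.89 CPM in CT (0.18 ± 0.09, adjusted p = 0.247). Pfkfb3 and Pfkfb4 encode the enzymes that set fructose-2,6-bisphosphate, the activator of phosphofructokinase. Pfkfb3 was at 87.7, 79.2 and 103 CPM in PS replicates 1, 2 and 3, and at 100.2, 107 and 112 CPM in CT replicates 1, 2 and 3 (-0.24 ± 0.09, adjusted p = 0.157). Pfkfb4 averaged 20.96 ± 0.557 CPM in PS and 23.5 ± 0.408 CPM in CT, without overlap (-0.17 ± 0.06, adjusted p = 0.130). Pdk1 encodes a kinase that holds back pyruvate use in the mitochondrion. It was at 45.4, 45.1 and 60.6 CPM in PS replicates 1, 2 and 3. In CT replicates 1, 2 and 3 it was at 56.3, 59.7 and 57.6 CPM. PS replicate 3 was the highest of the 6 and the other PS libraries were the lowest (-0.20 ± 0.11, adjusted p = 0.292). Slc16a3, the lactate exporter MCT4, was at 0.01 ± 0.09 on the log2 fold scale.

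The HIF system itself showed small positive values in 2 genes. Hif1a, the alpha subunit found in most cells, was at 195, 227 and 195 CPM in PS replicates 1, 2 and 3, against 188, 175 and 182 CPM in CT replicates 1, 2 and 3. The groups did not overlap (0.18 ± 0.07, 95% interval 0.02 to 0.34, adjusted p = 0.168 by edgeR). HIF-1 alpha is controlled chiefly through the stability of the protein, which RNA does not measure. Epas1, which encodes HIF-2 alpha, was rare, at 1.03, 1.28 and 1.06 CPM in PS replicates 1, 2 and 3, and at 1.17, 1.56 and 1.30 CPM in CT replicates 1, 2 and 3. Egln1, the main prolyl hydroxylase that marks HIF alpha, averaged 48.8 ± 1.07 CPM in PS and 43.0 ± 1.20 CPM in CT (0.18 ± 0.05, adjusted p = 0.0756 by edgeR), with no overlap. It passed with DESeq2 (adjusted p = 0.0441). Egln3, a hydroxylase that HIF itself induces, was at 40.6, 58.1 and 54.5 CPM in PS replicates 1, 2 and 3, and at 54.4, 51.3 and 46.1 CPM in CT replicates 1, 2 and 3, with overlapping groups (0.01 ± 0.12). Of 15 further genes of the HIF machinery, 0 were higher and 0 lower, beside 4.34% and 1.85% of all genes tested, with a median log2 fold change of 0.01.

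Many members stood differently against CT in PS replicate 3 than in the other PS libraries. All PS libraries lay above all CT libraries for 8 members (22.2%, beside 16.0% of all genes tested) and below them for 6 (16.7%, beside 14.5%). Among tested genes with a mean over 10 CPM, the same shares were 21.2% and 16.9%, so the members were near the background. For 8 other members, PS replicates 1 and 2 were above every CT library and PS replicate 3 was not. They were Slc2a1, Slc2a3, Hk1, Pfkp, Pfkm, Ankrd37, P4ha1 and Ddit4. For 5 members, Gapdh, Pgk1, Pfkfb3, Pdk1 and Bnip3, PS replicates 1 and 2 were below every CT library and PS replicate 3 was not. PS replicate 3 lay within the CT range for 14 members, PS replicate 1 for 5 and PS replicate 2 for 4. For these patterns of single PS libraries no share over all genes was computed, so they cannot be called particular to the members. Over all genes, 1035 passed in the main fit and 2647 without PS replicate 3. The macrophage list was at 11653 CPM in PS replicate 3, close to the CT libraries, and its part in this pattern was not tested.

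Without PS replicate 3, 6 members were higher, beside 7.76% of the 17136 genes then tested, and 3 were lower, beside 7.69%. The 6 were Ndrg1, Car9, P4ha2, Kdm3a, Ddit4 and Slc2a3, and the 3 were Bnip3, Pdk1 and Pfkfb3, with no glycolytic enzyme on either side. With DESeq2, 5 members were higher, beside 7.56% of genes tested, and 1 was lower, beside 4.34%. DESeq2 gave no adjusted p to 3242 of the 16716 genes. These shares count them as not passing, so they understate the background among genes that could be called. Scaled by library totals alone, 2 were higher, beside 3.31%, and 6 were lower, beside 9.16%; those 6 included the enzymes Eno1, Pkm, Pfkl and Tpi1, at a scaling that moves the median log2 fold change of all genes to -0.119. Without any 1 of the other libraries, Ndrg1 was the only member that passed. Those fits called 196 to 460 of the 17014 to 17164 genes then tested, against 1035 of 16716 in the main fit. With PS replicate 3 alone against CT, a comparison added after the data were seen, Ndrg1 was at 1.46 (adjusted p = 0.0109) and Car9 at 0.39 (adjusted p = 0.182). That fit has 1 PS library and assumes that it varies like the CT libraries.

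**Figure D4:**
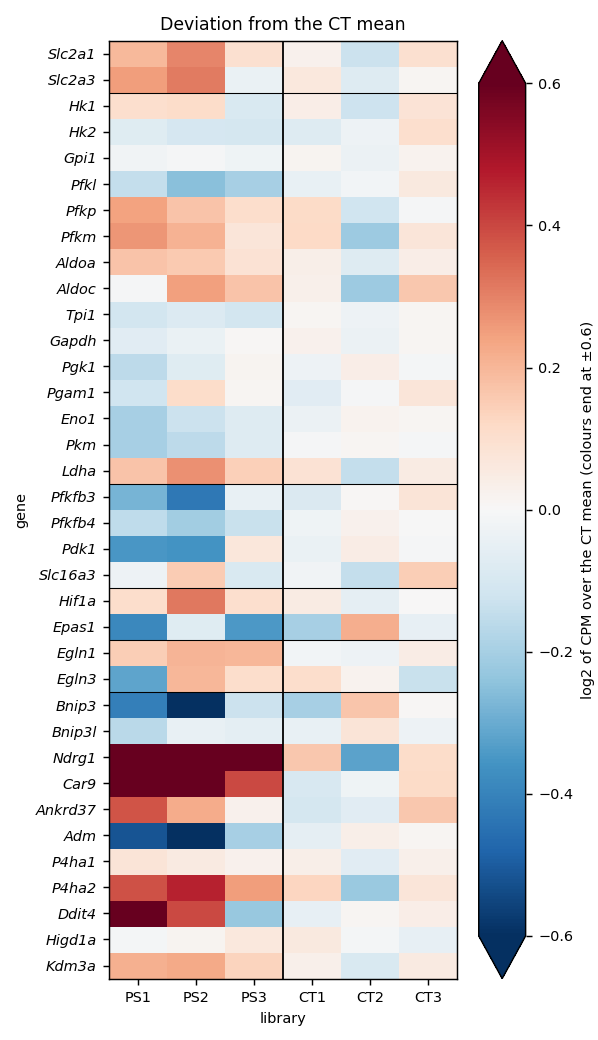
Log2 of CPM over the CT mean (colour) for each of the 36 genes in each library, PS libraries left of CT libraries; colours end at 0.6 in either direction. Ndrg1 is at the end of the scale in all 3 PS libraries, whereas Ddit4, Pdk1 and Bnip3 differ between PS replicate 3 and the other PS libraries.

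The hypoxia response element has ACGTG or GCGTG at its core. Both strings were searched on both strands in RefSeq promoters (GRCm38.p6), from 250 bases before to 50 after each gene's start, for the 32 members that matched. The others, Ndrg1, Bnip3l, Slc2a3 and Epas1, were not searched. The palindrome CACGTG holds ACGTG on both strands and so counts as a match on each. A match was found for 30 of the 32 members (93.8%), 13 of the 15 enzymes (86.7%) and 9 of the 9 other HIF targets searched. The same search matched 65.7% of the 11165 tested genes with a promoter and 46.7% of all 27025 genes. Gpi1 and Tpi1 had none in these windows. A match is a string of letters, not a bound site. The 250 bases before the start are printed for Car9, which rose and holds 1 match, and for the enzymes Ldha and Pgk1, which did not pass and hold more. Ero1a is added as a HIF target outside the set that rose. Each is 5′ to 3′ on the gene's strand, with matches of either strand in capitals. They span chr4:43506776-43507025 (+) for Car9, chr7:46845554-46845803 (+) for the first of Ldha's starts, chrX:106186850-106187099 (+) for Pgk1 and chr14:45318573-45318822 (-) for Ero1a.
Car9: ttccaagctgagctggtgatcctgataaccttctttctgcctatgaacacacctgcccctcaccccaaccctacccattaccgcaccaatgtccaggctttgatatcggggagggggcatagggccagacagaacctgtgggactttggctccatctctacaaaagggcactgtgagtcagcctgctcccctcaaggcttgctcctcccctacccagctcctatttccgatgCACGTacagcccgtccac
Ldha: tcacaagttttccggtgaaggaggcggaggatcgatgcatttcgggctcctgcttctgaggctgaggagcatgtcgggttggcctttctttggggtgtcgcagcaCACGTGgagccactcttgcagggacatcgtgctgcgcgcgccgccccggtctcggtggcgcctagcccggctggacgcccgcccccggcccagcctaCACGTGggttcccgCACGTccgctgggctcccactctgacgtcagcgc
Pgk1: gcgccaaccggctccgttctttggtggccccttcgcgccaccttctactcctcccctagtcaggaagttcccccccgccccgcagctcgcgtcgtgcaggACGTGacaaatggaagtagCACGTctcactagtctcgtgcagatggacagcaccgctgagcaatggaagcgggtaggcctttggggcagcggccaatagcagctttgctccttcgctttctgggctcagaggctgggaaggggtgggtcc
Ero1a: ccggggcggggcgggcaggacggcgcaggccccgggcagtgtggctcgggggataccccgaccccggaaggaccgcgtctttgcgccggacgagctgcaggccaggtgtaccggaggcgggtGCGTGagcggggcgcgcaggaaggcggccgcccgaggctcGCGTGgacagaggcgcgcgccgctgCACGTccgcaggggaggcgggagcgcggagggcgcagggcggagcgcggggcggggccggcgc

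In Car9 the match starts 18 bases before the start of the gene, on the opposite strand. Ldha holds 2 palindromes and a further match in the printed stretch, and Pgk1 holds 2 matches, 150 and 131 bases before its start. Ldha and Pgk1 had more matches than Car9, with log2 fold changes of 0.20 and -0.07, against 0.92 for Car9. These genes were picked for display, and a relation between matches and fold changes was not tested.

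A list of 35 further HIF targets was likewise uneven. Of these, 4 were higher (beside 4.34% of all genes tested), 1 was lower (beside 1.85%) and 30 did not pass, with a median log2 fold change of 0.08. Ero1a, an oxidase that helps form disulfide bonds in the endoplasmic reticulum, was at 1758, 1973 and 1852 CPM in PS replicates 1, 2 and 3, against 1344, 937 and 1204 CPM in CT replicates 1, 2 and 3. Every PS library was above every CT library (0.68 ± 0.12, adjusted p = 0.0189 by edgeR). The call ended without PS replicate 2 (adjusted p = 0.0757) or CT replicate 3 (0.0599). Loxl2, a lysyl oxidase of the extracellular matrix, was at 162, 201 and 176 CPM in PS replicates 1, 2 and 3, against 97.7, 71.3 and 89.7 CPM in CT replicates 1, 2 and 3 (1.06 ± 0.12, adjusted p = 0.00443). The creatine transporter gene Slc6a8 was at 28.8, 29.9 and 26.6 CPM in PS replicates 1, 2 and 3, against 14.3, 11.3 and 14.3 CPM in CT replicates 1, 2 and 3 (1.10 ± 0.10, adjusted p = 0.00170).

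The gene that fell was Ppfia4, a liprin. It was at 9.68, 10.1 and 10.7 CPM in PS replicates 1, 2 and 3, against 14.4, 16.6 and 15.4 CPM in CT replicates 1, 2 and 3 (-0.61 ± 0.08, adjusted p = 0.00817 by edgeR). The calls of Loxl2, Slc6a8 and Ppfia4 held in all 6 fits that left out 1 library. The fourth that rose, Hilpda, which encodes a lipid droplet protein, was chosen after its values were seen. It was at 101, 109 and 104 CPM in PS replicates 1, 2 and 3, against 71.0, 48.0 and 69.7 CPM in CT replicates 1, 2 and 3 (0.73 ± 0.13, adjusted p = 0.0192). That call ended without PS replicate 1 (adjusted p = 0.0549) or PS replicate 2 (0.0757). Vegfa, the angiogenic growth factor and also chosen after its values were seen, was at 101, 106 and 63.0 CPM in PS replicates 1, 2 and 3, against 58.5, 55.2 and 63.9 CPM in CT replicates 1, 2 and 3 (0.61 ± 0.17, adjusted p = 0.0705). PS replicate 3 was again at the CT level. Hmox1, the haem oxygenase and among the most abundant genes of the list, was at 299, 265 and 539.9 CPM in PS replicates 1, 2 and 3, and at 415, 520.2 and 495 CPM in CT replicates 1, 2 and 3 (-0.37, adjusted p = 0.358).

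No gene of the neighbouring pathways of glucose use passed in the main fit. The lists tested held 17 other glycolysis genes and 14 genes of pyruvate entry and use in the mitochondrion. They also held 7 genes of the pentose phosphate pathway and 19 of the tricarboxylic acid (TCA) cycle. Of these, 0 were higher and 0 lower, beside 4.34% and 1.85% of all genes tested. Unadjusted p-values under 0.05 were reached by 3, 3, 0 and 1 of them on the higher side and by 3, 1, 2 and 1 on the lower side, in the same order, beside 13.3% and 11.6% of all genes tested. Their median log2 fold changes were -0.03, 0.00, -0.12 and -0.04. All PS libraries lay below all CT libraries for 42.9% of the pentose phosphate genes, beside 14.5% of all genes tested, and above them for 0%, beside 16.0%. Some genes passed under alternative settings. These were most often Pgd, Pdp1 and Adpgk, with 6, 5 and 3 of 15 alternatives, all chosen after their values were seen. Of 11 glucocorticoid targets, listed because restraint is known to raise this hormone, 4 were higher and 0 lower, beside 4.34% and 1.85% of all genes tested. The other 7 did not pass, and the median was 0.17. All PS libraries lay above all CT libraries for 36.4% of the 11, beside 16.0% of all genes tested, and below them for 0%, beside 14.5%. Those above were Nfkbia, Dusp1, Tsc22d3 and Klf9. In that order they averaged 446, 253, 51.6 and 3.68 CPM per kilobase in PS, and 292, 182, 39.6 and 2.47 in CT. Fkbp5, Per1 and Sgk1, chosen after their values were seen, had overlapping groups. They averaged 18.7, 56.5 and 13.3 CPM per kilobase in PS, and 17.4, 56.1 and 13.7 in CT. A part of the hormone in these values was not tested.

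**Figure D5:**
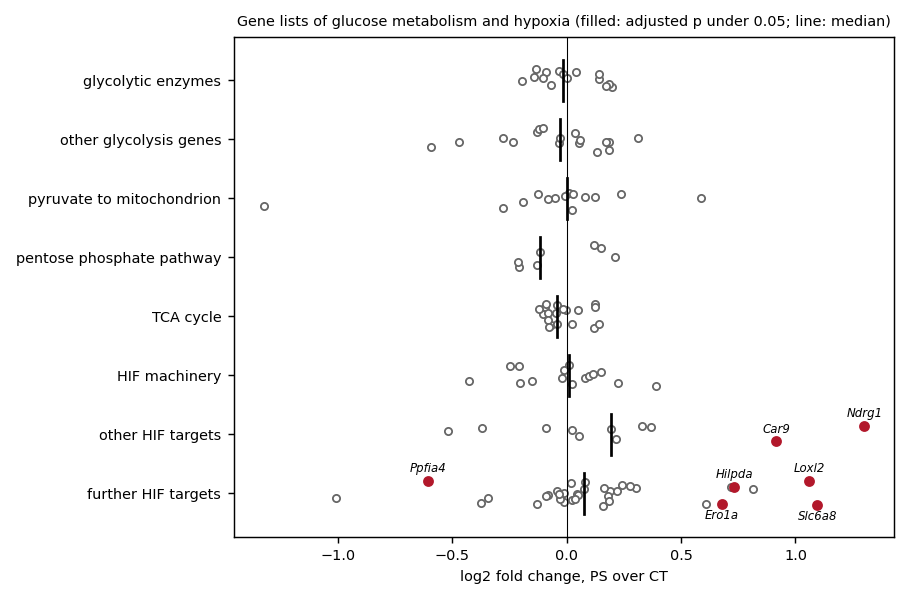
Log2 fold change of PS over CT for each gene tested in 8 lists (1 point per gene), with a bar at each list's median; filled points passed an adjusted p of 0.05. Filled points occur in the 2 lists of HIF targets, where the medians are 0.19 and 0.08, and in none of the other lists.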

How the data were processed

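Polyadenylated RNA of 6 libraries (3 PS, 3 CT) was made into stranded TruSeq libraries from 500 ng with 11 PCR cycles, per the labels' protocols. The authors deposited raw read counts per gene symbol for each library, not normalized. FastQC, STAR 2.4 and HTSeq 0.9.1, with builds GRCm39 and mm10, are named in the submitters' processing notes. Neither strand setting nor annotation release is given in the sources used here. Rows that name no gene took 18.6% to 20.27% of the reads tallied and were left out of library sizes and tests.

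Genes were filtered with filterByExpr (minimum count 10), scaled with TMM factors and tested with edgeR 4.0.16 (quasi-likelihood, R 4.3.3) for PS against CT. P-values were adjusted by Benjamini-Hochberg, with a threshold of 0.05. Biological variation between replicates, common to all genes, was estimated at 10.4%. CPM use TMM-scaled library sizes. The test was checked on simulated data. Replicates of a group differed by more than sampling noise. Lengths, shared 75-mers and overlaps came from GENCODE M21 (GRCm38), and promoters from RefSeq (GRCm38.p6). Since the build of the files is open, coordinates are those of the RefSeq table. Other settings tried were upper-quartile and RLE factors, library totals, no filter, a strict filter (10 counts in 3 libraries and a mean of 1 CPM), DESeq2 1.42.0, limma-voom (limma 3.58.1), a replicate block, a macrophage covariate and each library left out.

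The members and lists were chosen with earlier results of these data known. All members could be named, and of each other list at most the 4 called genes with the smallest p and the 3 most expressed; others are said to be chosen after their values were seen.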

Additional observations from a re-analysis of the deposited data

How the results depend on the processing

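Of the members, Ndrg1 passed under all 15 alternatives listed in the methods and Car9 under 7. Neither changed sign under any alternative. Of the 34 members that did not pass, 11 changed sign under at least 1: 7 with PS replicate 3 alone and 6 with library totals. Ddit4 was at -0.23 and Pdk1 at 0.06 with PS replicate 3 alone, and Hk1 at -0.07 and P4ha1 at -0.06 with library totals. The number of members called higher was 5 with DESeq2, and 1 with limma-voom and with the macrophage covariate. DESeq2 called 7.56% of genes tested higher, with 3242 genes that got no adjusted p counted as not passing. The fit of PS replicate 3 alone was an alternative chosen after seeing the data. Leaving out a library gave 1 to 6 members higher and 0 to 3 lower. Members called lower were 6 with library totals (Eno1, Pkm, Tpi1, Pfkl, Pfkfb3 and Pfkfb4, where 9.16% of genes tested were lower), and 1 each with no filter (Bnip3), the strict filter (Pfkl) and DESeq2 (Pfkl). Scaling by library totals moved the log2 median over all genes to -0.119, that of the glycolytic enzymes to -0.13 and that of the other HIF targets to 0.0789, and 26.5% of its calls were higher, against 70.0% with TMM factors. The enzymes' median was between -0.04 and -0.01 without any 1 library and 0.0019 with PS replicate 3 alone. That of the other HIF targets was 0.11 to 0.22 without 1 library (0.11 without PS replicate 1), 0.0300 with the macrophage covariate and 0.0240 with PS replicate 3 alone. Over all genes, 1035 passed, against 2085 with library totals, 1933 with no filter, 1989 with DESeq2, 639 with the macrophage covariate, 171 with PS replicate 3 alone, and 196 to 2647 without 1 library. For these shifts the cause was not tested.

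Same-numbered libraries correlated at 0.174, -0.178 and 0.0458 in their deviations from the group means. Libraries with different numbers correlated at -0.343 to 0.288. Within a group of 3 the deviations sum to 0, so these values cannot decide whether the numbers pair the samples. With the replicate number as a block, 622 genes passed, 1 member was higher (Ndrg1), 0 were lower, and Car9 was at an adjusted p of 0.0600. With 3 pools per group, the enzymes' intervals in the main fit leave room for changes of 0.799-fold to 1.32-fold, given its scaling. Rare members such as Epas1 and Adm have wider intervals.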
